A study of Homo sapiens with 24 samples.

Results

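The epithelial junction genes examined here were 41 genes, listed by symbol, that encode the proteins holding epithelial cells to one another. They comprised 4 cadherins (CDH1, CDH2, CDH3, CDH17), 9 claudins (CLDN1, CLDN2, CLDN3, CLDN4, CLDN6, CLDN7, CLDN12, CLDN15, CLDN23), 3 MARVEL proteins (OCLN, MARVELD2, MARVELD3), 4 tight junction scaffolds and adhesion molecules (TJP1, TJP3, CGN, F11R), 4 desmosomal cadherins (DSG2, DSG3, DSC2, DSC3), 8 desmosomal plaque proteins (DSP, JUP, PKP1, PKP2, PKP3, PKP4, PPL, EVPL), 2 catenins (CTNNA1, CTNND1), 5 nectins and afadin genes (NECTIN1, NECTIN2, NECTIN3, NECTIN4, AFDN), EPCAM and CRB3. Of these, 39 were among the 33113 genes of the deposited table of estimated counts, and TJP1 and TJP3 were taken from a second deposited table of 37967 genes. The genes lay on 15 chromosomes.

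RNA-seq was performed on 24 samples in 8 groups of 3. HCT116, a human colorectal carcinoma line, was compared with HCT116 oxpl-R, a population derived from it by repeated pulses of oxaliplatin, a platinum drug that forms DNA adducts. Both lines carried a doxycycline-inducible (TetOn) transgene for E1A, an adenoviral protein that binds RB family members and the p300/CBP coactivators, so that untreated controls carried the uninduced transgene as well. Each line was left untreated, given 25 µM oxaliplatin for 24 h, induced for E1A with 0.5 µg/mL doxycycline, or given doxycycline 3 h before oxaliplatin. No group received doxycycline without the transgene, so that doxycycline and E1A cannot be told apart, and the transgene's own RNA was not analysed here. oxpl-R is one selected line, so that differences between the lines describe this pair of lines. Library totals ranged from 24838095 to 37927720 estimated counts. Labels number the samples as biological replicates but do not say whether cultures were separate, so that p-values measure the spread between these samples.

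Epithelial cells adhere through stacked junctions. In tight junctions, claudins and occludin seal the space between cells and are tied to the actin cytoskeleton by ZO scaffolds (TJP1, TJP3) and cingulin (CGN), while CRB3 belongs to the Crumbs complex that sets apical polarity. In adherens junctions, E-cadherin (CDH1) binds catenins, and nectins bind afadin (AFDN). In desmosomes, desmogleins and desmocollins bind plakoglobin (JUP), plakophilins and desmoplakin (DSP), which anchor keratin filaments, with periplakin (PPL) and envoplakin (EVPL) as further linkers. Loss of CDH1 and occludin, with repression by zinc-finger factors that bind CACCTG, is the classical mark of epithelial-mesenchymal transition.

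Libraries varied unequally around their group means. Over genes, HCT116 oxaliplatin replicate 3 deviated from its group mean with an SD of 0.41 on the log2 scale. Replicates 1 and 2 had SDs of 0.27 and 0.23. In replicate 3, long genes (at least 7909 exon bases) exceeded short genes (at most 3025) by a median of 0.38. HCT116 E1A plus oxaliplatin replicate 1 deviated with an SD of 0.40, against 0.21 and 0.26 for replicates 2 and 3. Within whole groups, SDs were 0.31 to 0.36 for oxpl-R with oxaliplatin and 0.28 to 0.32 for oxpl-R with E1A, compared with 0.12 to 0.17 for the HCT116 controls. Libraries that decided a value are named beside the main results they touch. Labels were checked with genes outside the list. CDKN1A, the p53-induced cyclin-dependent kinase inhibitor, rose with oxaliplatin in HCT116 from 147, 137 and 148 to 2136, 1776 and 1723 CPM, the count scaled to library size, and in oxpl-R from 529.8, 566 and 604 to 4726, 4167 and 3554 CPM. MDM2, another p53 target, was at 102, 105 and 96.4 CPM in untreated HCT116 and 107, 127 and 184 CPM with oxaliplatin, which was not called (0.54, edgeR adjusted p = 0.0716), whereas in oxpl-R it rose from 181, 168 and 150 CPM to 604, 712 and 798 CPM (2.09, edgeR adjusted p = 9.49e-05). The difference between these responses was 1.57 (edgeR adjusted p = 0.00559). The E1A label was less evident. Among 12 E2F targets, only E2F1 passed the test with E1A in HCT116 (log2 fold change 0.35), and none did in oxpl-R. Under oxaliplatin, none passed with E1A in HCT116. In oxpl-R under oxaliplatin, 8 of 12 were higher with E1A, led by CCNE2 (2.45), where 0.638% of all genes were called. CCNE1 was not called in any of these comparisons. The 9 colorectal epithelial markers all had values and summed to between 5301 and 16731 CPM per library, with KRT8 the most abundant at a mean of 4908 CPM, although CDX1 never exceeded 1 CPM and was at 0 in most libraries. KRT20 was low as well, with means of 0.93 CPM in HCT116 with oxaliplatin and 0.72 CPM in HCT116 with E1A and oxaliplatin. The 4 endothelial markers never exceeded 1 CPM and together reached at most 0.912 CPM. The 6 haematopoietic markers summed to 1.37 to 7.18 CPM, with CD68 the most abundant at a mean of 3.57 CPM, and the 8 fibroblast markers to 22 to 118 CPM, with COL1A1 the most abundant at 23.5 CPM. Of the 7 fibroblast markers tested with oxaliplatin in each line, 1 was higher and 0 lower in HCT116, and 1 was higher and 1 lower in oxpl-R. ACTA2 rose by 3.19 log2 units in HCT116 and by 3.15 in oxpl-R, where replicate 2 stood at 100.6 CPM beside 20.3 and 17.5 CPM and the change without it was 1.90. COL1A2 was lower in oxpl-R, at 0.642, 8.39 and 0.396 CPM untreated and 0.0343, 0.038 and 0.16 CPM with oxaliplatin, and its call was lost without oxpl-R control replicate 2 or oxpl-R oxaliplatin replicate 1. The part of these markers in the results was not tested.

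Promoter sequence is shown for 6 junction genes as examples, which leave out NECTIN3 and CGN. In capitals is CACCTG, or CAGGTG where the motif is on the other strand. Printed are the 250 bases before the RefSeq start (GRCh38.p14), 5′ to 3′ on the gene's strand. They lie at chr7:73770271-73770520 (minus strand) for CLDN3, chr7:73830746-73830995 (plus) for CLDN4, chr17:7263214-7263463 (minus) for CLDN7, chr1:161089559-161089808 (minus) for NECTIN4, chr19:6464021-6464270 (plus) for CRB3 and chr6:167827385-167827634 (plus) for AFDN. For CLDN4, CLDN7, CRB3 and AFDN these windows lie inside the gene as GENCODE bounds it, because GENCODE has a start further upstream, and the spans given further on follow GENCODE (33.1 kb for CLDN4).
CLDN3: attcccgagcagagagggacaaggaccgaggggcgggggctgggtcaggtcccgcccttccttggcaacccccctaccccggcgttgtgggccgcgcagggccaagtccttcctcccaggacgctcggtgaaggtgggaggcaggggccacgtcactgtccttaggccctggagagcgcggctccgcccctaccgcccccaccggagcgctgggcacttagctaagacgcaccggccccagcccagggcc
CLDN4: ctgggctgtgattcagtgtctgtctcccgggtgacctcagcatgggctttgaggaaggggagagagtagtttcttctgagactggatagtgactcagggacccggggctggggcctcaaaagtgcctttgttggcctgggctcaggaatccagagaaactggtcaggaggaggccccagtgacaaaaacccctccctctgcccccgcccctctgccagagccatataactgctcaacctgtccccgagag
CLDN7: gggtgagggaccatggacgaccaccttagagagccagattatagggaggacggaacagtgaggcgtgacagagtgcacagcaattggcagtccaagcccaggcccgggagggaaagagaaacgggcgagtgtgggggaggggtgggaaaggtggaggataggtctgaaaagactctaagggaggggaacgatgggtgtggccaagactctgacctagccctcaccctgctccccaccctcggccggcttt
NECTIN4: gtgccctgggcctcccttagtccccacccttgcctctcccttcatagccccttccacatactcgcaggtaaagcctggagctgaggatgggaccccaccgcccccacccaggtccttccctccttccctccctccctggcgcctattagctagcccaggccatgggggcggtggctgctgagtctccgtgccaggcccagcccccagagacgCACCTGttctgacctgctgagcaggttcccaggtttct
CRB3: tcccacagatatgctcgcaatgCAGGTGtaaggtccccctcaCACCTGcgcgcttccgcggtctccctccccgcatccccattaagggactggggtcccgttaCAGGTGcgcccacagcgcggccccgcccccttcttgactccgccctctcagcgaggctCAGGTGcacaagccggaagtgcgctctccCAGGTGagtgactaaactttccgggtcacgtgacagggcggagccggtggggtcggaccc
AFDN: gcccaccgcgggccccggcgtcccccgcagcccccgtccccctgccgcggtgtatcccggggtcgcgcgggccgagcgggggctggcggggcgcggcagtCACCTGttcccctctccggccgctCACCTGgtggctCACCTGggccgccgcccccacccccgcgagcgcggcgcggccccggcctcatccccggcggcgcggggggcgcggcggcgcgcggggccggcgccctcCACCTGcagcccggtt
The 3 claudin promoters held no CACCTG on either strand, the NECTIN4 promoter held 1 match, AFDN 4 and CRB3 5. A promoter was listed for 28 of the 41 genes, and 8 of these (AFDN, CRB3, DSC2, DSG2, DSP, NECTIN4, OCLN and TJP1) held the motif, compared with 17.5% of all 27305 promoters. The GC-box GGGCGG, searched on both strands, was present in 23 of the 28, against 42.3% of all promoters, and TATAAA in 0 of the 28, against 11.1%. Median GC content was 66.4% over the 28 promoters and 58% over all, and CACCTG and GGGCGG matches were counted without regard to it. A match describes these letters in these windows.

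Divided by annotated exon length, the most abundant junction gene over the 24 samples was EPCAM, a pan-epithelial adhesion molecule, at 121.9 CPM per kb. It was followed by CLDN7 at 104 CPM per kb, JUP at 92.2, CLDN4 at 88.1 and PKP3 at 58.4. CDH1 stood at 20.7 CPM per kb, below P-cadherin (CDH3) at 48.3. CLDN1 reached only 0.261 CPM per kb. A group of 5 genes was at the edge of detection, namely CDH17 and PKP1 with at most 10 counts in any library, DSG3 with at most 8, CLDN6 with at most 19 and N-cadherin (CDH2) with at most 28. CDH17 encodes the intestinal cadherin, a marker usual in colon tissue, and it was at or near 0 in these cells. The ratio of highest to lowest group mean was 24.9 for NECTIN4, 8.62 for CLDN1, 5.68 for NECTIN3, 3.83 for CLDN3 and 3.82 for AFDN.

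**Figure D1:**
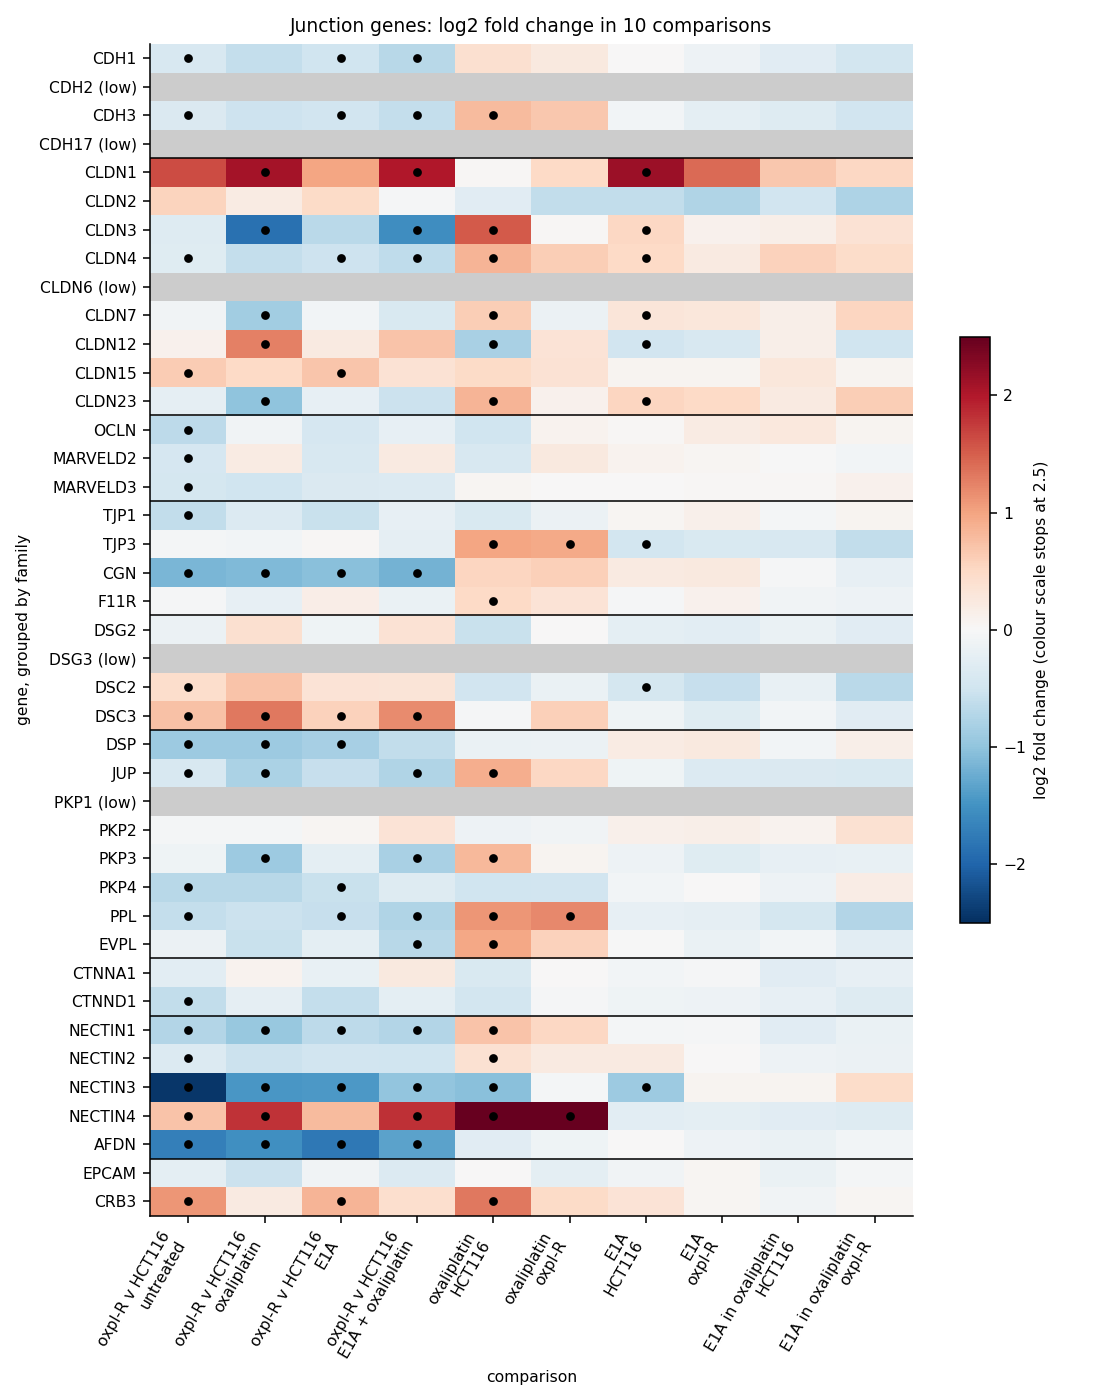
Log2 fold change (colour, scale stops at 2.5) of each junction gene (vertical axis, grouped by family) in 10 comparisons (horizontal axis). Black points mark adjusted p below 0.05 and grey bars the 5 genes with few counts. AFDN, CGN and NECTIN3 were lower in oxpl-R in all 4 comparisons of the lines, and NECTIN4 was higher with oxaliplatin in both lines.

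The first question was how junction genes differed between the untreated lines. In oxpl-R, 17 of the 41 genes were lower and 5 were higher than in HCT116 at an adjusted p below 0.05. Of all genes tested, 14.2% were lower and 14.1% were higher. Of these 16715 genes, 10934 had at least 10 counts on average. Here and below, shares of all genes thus include genes with few counts, whereas most junction genes had more. The share called among genes with at least 10 counts is not given, so that an excess over all genes cannot be measured here. The median log2 fold change was -0.25 over the 41 genes and 0.08 over all genes tested. Over the 10934 genes with at least 10 counts on average it was -0.02. The calls of 12 of the 22 genes held with each of the 6 samples left out, namely AFDN, CGN, CLDN15, CRB3, DSC3, DSP, NECTIN1, NECTIN3, OCLN, PKP4, PPL and TJP1. When all 24 samples were fitted together, 12 genes were called, 7 lower and 5 higher. The share of all genes called in that fit is not given here, so that these counts cannot be set against all genes.

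The nectin and afadin group had the largest differences, with 4 of 5 genes lower and 1 higher. NECTIN3, a cell adhesion molecule that pairs with other nectins across the cell gap, was at 157, 154 and 133 CPM in the HCT116 controls and at 27.0, 32.3 and 21.9 CPM in oxpl-R. The groups lay far apart, with a log2 fold change of -2.44 ± 0.15 (SE, edgeR adjusted p = 1.45e-07). NECTIN3 lies on chromosome 3, whose genes had a median log2 fold change of 0.42. AFDN, which links nectins to actin, was at 52.1, 53.5 and 55.2 CPM in HCT116 and at 17.7, 16.4 and 15.2 CPM in oxpl-R (-1.70 ± 0.13, edgeR adjusted p = 7.12e-07), beside a median of -0.26 for chromosome 6. NECTIN1 (-0.73) and NECTIN2 (-0.34) were lower as well, the latter call being lost without any 1 of the 3 HCT116 controls. NECTIN4 was higher (0.71 ± 0.22, edgeR adjusted p = 0.0294), at 4.41, 4.83 and 4.43 CPM in oxpl-R and 2.75, 2.05 and 3.64 CPM in HCT116. Its call was lost without HCT116 control replicate 1 or 2 or oxpl-R control replicate 1, and the second table gave 1.35 for the same samples.

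Among tight junction genes, all 3 MARVEL genes were lower. OCLN, which encodes occludin, fell by 0.65 on the log2 scale (SE 0.14, edgeR adjusted p = 0.00298), from 47.2, 43.8 and 40.1 CPM in HCT116 to 25.2, 25.6 and 32.1 CPM in oxpl-R. MARVELD3 (-0.44) and MARVELD2 (-0.42) were called as well, but MARVELD3 not without HCT116 control replicate 2 and MARVELD2 in only 1 of the 6 fits with a sample left out. CGN was at 34.3, 31.8 and 41.97 CPM in HCT116 and at 17.8, 14.2 and 16.6 CPM in oxpl-R, without overlap (-1.14 ± 0.15, edgeR adjusted p = 9.4e-05). The ZO-1 gene TJP1 was lower (-0.62 ± 0.12, edgeR adjusted p = 0.00245) in the second table, where 24.1% of genes were called in either direction, whereas TJP3 (-0.04) and F11R (-0.03), which encodes junctional adhesion molecule A, were not called. Of the 9 claudins, CLDN15 was higher (0.64) and CLDN4 lower (-0.31), the latter call remaining in 1 of 6 fits with a sample left out. CLDN1 (1.63 ± 0.62, edgeR adjusted p = 0.0656), CLDN2 (0.56), CLDN3 (-0.33) and CLDN7 (-0.09) were not called. CRB3 was higher, at 50.9, 63.0 and 52.2 CPM in oxpl-R and 24.8, 22.3 and 31.2 CPM in HCT116 (1.10 ± 0.15, edgeR adjusted p = 0.000116).

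Among cadherins, catenins and desmosomal genes, CDH1 was at 132, 135 and 149.6 CPM in HCT116 and at 114, 102 and 95.4 CPM in oxpl-R, so that the groups did not overlap (-0.41 ± 0.11, edgeR adjusted p = 0.0131). Its call was lost without HCT116 control replicate 3 and in the fit of all 24 samples, and the median of its chromosome 16 was -0.26. CDH3, whose gene ends 9.82 kb from CDH1, was lower by a similar size (-0.36), a call lost without HCT116 control replicate 2 or 3. The p120 catenin gene CTNND1 was lower (-0.62), although not without HCT116 control replicate 3, and alpha-catenin (CTNNA1) was not called. Of the 8 plaque genes, 4 were lower, with DSP at 266, 278 and 302 CPM in HCT116 and 159, 169 and 121 CPM in oxpl-R (-0.90 ± 0.13, edgeR adjusted p = 0.000215), followed by PKP4 (-0.69), PPL (-0.60) and JUP (-0.40), the last called in 2 of 6 fits with a sample left out. Of the 4 desmosomal cadherins, the desmocollins DSC3 (0.73) and DSC2 (0.43, lost without replicate 1 of either line) were higher, and the desmogleins DSG2 (-0.14) and DSG3 (1.95, on few counts) were not called. EPCAM was at 337, 338 and 364 CPM in HCT116 and 305, 339 and 219.9 CPM in oxpl-R, which overlapped (-0.25, edgeR adjusted p = 0.227). Antisense RNAs NECTIN3-AS1 and DSP-AS1 had up to 376 and 686 counts, and without a stated strand setting their reads cannot be told apart from those of their partners.

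The lines were also compared within each treatment. These comparisons use separate samples. Under oxaliplatin, 10 junction genes were lower and 4 higher in oxpl-R, where 10.9% of all genes were lower and 9.77% higher. The 14 calls fell to 8 without oxpl-R oxaliplatin replicate 3 and to 9 without HCT116 oxaliplatin replicate 2. With E1A, 10 were lower and 3 higher, against 7.10% and 10.6% of all genes, and 3 lower and 1 higher without HCT116 E1A replicate 1 or without replicate 2. With both, 12 were lower and 4 higher, against 8.39% and 10.1%, and these 16 calls fell to 7 without oxpl-R E1A plus oxaliplatin replicate 2 and to 9 without its replicate 3. AFDN and CGN passed in all 4 comparisons of lines with every sample left out in turn, the log2 fold changes of AFDN being -1.53 under oxaliplatin, -1.78 with E1A and -1.34 with both, and those of CGN -1.10, -1.05 and -1.19. NECTIN3 was lower by 1.46 and 1.43 units under oxaliplatin and E1A, but by 0.98 with both, where the samples overlapped and the call remained in 2 of 6 fits with a sample left out. CDH1 was called with E1A (-0.50, edgeR adjusted p = 0.0458) and with both (-0.69, edgeR adjusted p = 0.0441), each in 3 of 6 fits with a sample left out, but not under oxaliplatin (-0.60, edgeR adjusted p = 0.0731). CRB3, higher in untreated oxpl-R, was not called under oxaliplatin (0.22, edgeR adjusted p = 0.533), where the samples overlapped. With E1A it was called, also with every sample left out in turn.

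Under oxaliplatin, CLDN3, a barrier-forming claudin, was at 36.04, 34.7 and 36 CPM in HCT116 and at 13.1, 10.4 and 7.62 CPM in oxpl-R (-1.87 ± 0.27, edgeR adjusted p = 0.000451). With E1A and oxaliplatin it was lower by a similar amount (-1.56). NECTIN4 was higher in oxpl-R by 1.80 ± 0.24 under oxaliplatin (edgeR adjusted p = 0.000208) and by 1.83 with E1A as well. DSC3 was higher by 1.32 and 1.19 in these 2 comparisons. CLDN1 was higher by 2.08 under oxaliplatin and 2.01 with both, at 1.27, 0.988 and 1.04 CPM in oxpl-R against 0.323, 0.181 and 0.221 CPM in HCT116 under oxaliplatin. That is a low level, and without HCT116 oxaliplatin replicate 2 the call under oxaliplatin was lost. CLDN12 (1.25) was called under oxaliplatin but not without replicate 3 of either line, and CLDN23 (-1.0) was called in 2 of 6 such fits. DSC2 passed with the replicate number as a block (0.74, edgeR adjusted p = 0.0308) and not without it (0.72, edgeR adjusted p = 0.0572). CDH17 was called with E1A and oxaliplatin, on at most 10 counts per library and 0 in the 3 HCT116 libraries, so that no fold is given, and it was called in 0 of 6 fits with a sample left out.

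Other junction genes were followed in every comparison whatever their values. Under oxaliplatin, DSP (-0.91), CLDN7 (-0.87) and JUP (-0.80) were lower in oxpl-R, DSP not without replicate 3 of either line, CLDN7 in 3 of 6 fits with a sample left out and JUP in 1 of 6. CLDN4 (-0.59), EPCAM (-0.54), TJP1 (-0.35), F11R (-0.20), OCLN (-0.09), TJP3 (-0.07) and CLDN2 (0.20) were not called. With E1A, DSP (-0.83, not without HCT116 E1A replicate 1 or 2) and CLDN4 (-0.52, called in 2 of 6 fits with a sample left out) were lower, and CLDN3 (-0.67), JUP (-0.57), TJP1 (-0.56), OCLN (-0.42), EPCAM (-0.08), CLDN7 (-0.06), TJP3 (0.02), F11R (0.16), CLDN2 (0.47) and CLDN1 (0.98) were not called. With both, JUP (-0.75, not without oxpl-R E1A plus oxaliplatin replicate 2 or 3) and CLDN4 (-0.64, called in 3 of 6 such fits) were lower, and DSP (-0.62), CLDN7 (-0.39), EPCAM (-0.34), TJP3 (-0.23), TJP1 (-0.21), OCLN (-0.20), F11R (-0.16) and CLDN2 (-0.03) were not called.

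**Figure D2:**
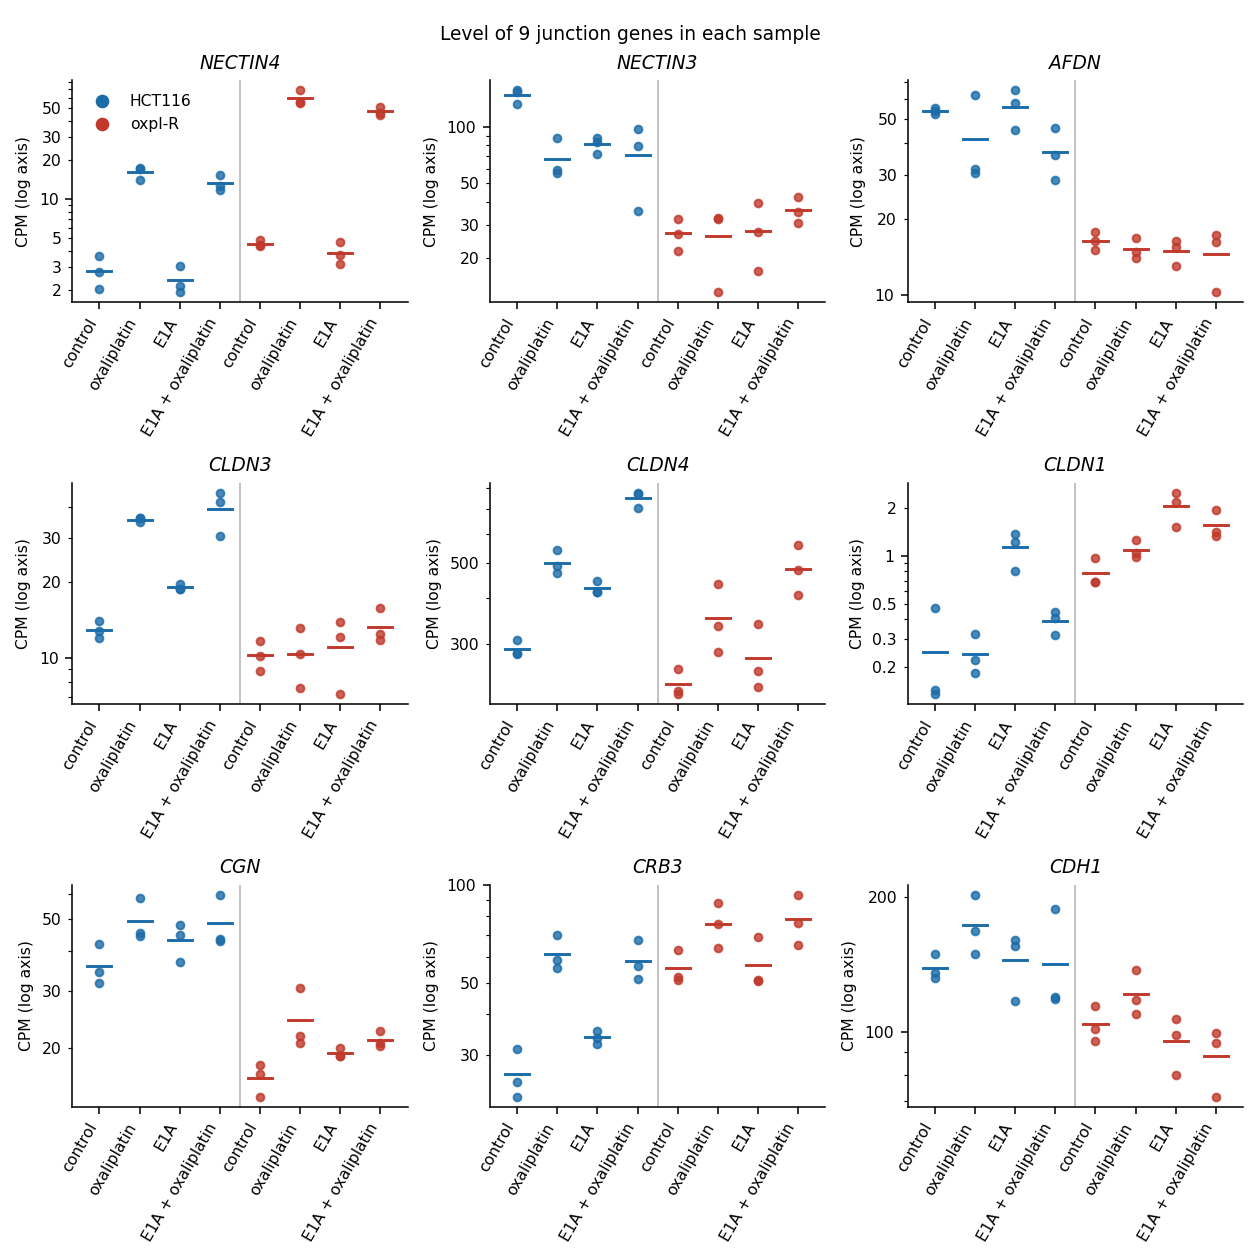
Level of 9 junction genes (vertical axis, CPM on a log scale) in each of the 24 samples (points) by treatment (horizontal axis), with HCT116 in blue and oxpl-R in red and the group mean as a bar. NECTIN4 was at 54.6 to 68.6 CPM in oxpl-R with oxaliplatin and at 2.05 to 3.64 CPM in untreated HCT116, while CLDN3 with oxaliplatin was at 34.7 to 36.04 CPM in HCT116 and at or below 13.1 CPM in oxpl-R.

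The next comparison asked how oxaliplatin changed junction genes in HCT116. After 24 h, 15 of the 41 genes were higher and 2 lower than in untreated cells, where 13.1% of all genes were higher and 10.2% lower. The median log2 fold change of the 41 genes was 0.04 and of all genes tested 0.02. Over the 10774 genes with at least 10 counts on average it was -0.02. The calls of 11 of the 17 held with every sample left out (CDH3, CLDN3, CLDN4, CRB3, EVPL, JUP, NECTIN3, NECTIN4, PKP3, PPL and TJP3). The count was 11 without HCT116 control replicate 1 or 2 and 29 (17 higher, 12 lower) without HCT116 oxaliplatin replicate 3. These comparisons share the untreated HCT116 samples with the comparison of untreated lines.

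NECTIN4, a nectin that binds NECTIN1 and is the target of an antibody-drug conjugate, rose most, from 2.75, 2.05 and 3.64 CPM to 14.0, 16.9 and 17.4 CPM (2.59 ± 0.25, edgeR adjusted p = 0.000467). The second table gave 2.92. F11R, its neighbour 49.7 kb away on chromosome 1, was higher by 0.49 and held its call in 2 of 6 fits with a sample left out. NECTIN1 was higher (0.71, lost without HCT116 control replicate 1 or 2), and NECTIN3 was lower, from 157, 154 and 133 CPM to 57.1, 87.0 and 59.2 CPM (-1.05 ± 0.18, edgeR adjusted p = 0.00334).

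Of the 9 claudins, 4 were higher. CLDN3 went from 14.1, 12.03 and 12.8 CPM to 36.04, 34.7 and 36 CPM (1.53 ± 0.16, edgeR adjusted p = 0.000547), with all treated samples close together. CLDN4, which lies 29.3 kb from CLDN3 on the opposite strand and whose protein is a widely expressed epithelial claudin, went from 283, 285 and 309 CPM to 540.2, 469 and 489 CPM (0.85 ± 0.12, edgeR adjusted p = 0.00196). CLDN7 (0.62) and CLDN23 (0.85) were higher as well, CLDN7 not without HCT116 control replicate 1 or 2 and CLDN23 in 2 of 6 fits with a sample left out. CLDN12 was lower (-0.81), again not without HCT116 control replicate 1 or 2. CRB3 rose from 24.8, 22.3 and 31.2 CPM to 69.9, 58.6 and 55.4 CPM (1.31 ± 0.18, edgeR adjusted p = 0.00143). TJP3 (0.99) was higher in the second table, where 21.1% of genes were called, whereas TJP1 (-0.39) and OCLN (-0.49, edgeR adjusted p = 0.1) were not called.

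In the desmosomal plaque, 4 of 8 genes rose and no desmosomal cadherin was called. PPL went from 60.2, 57.6 and 60.1 CPM to 113, 118 and 131 CPM (1.11 ± 0.13, edgeR adjusted p = 0.000857). EVPL, the partner of periplakin, was higher by 0.97, JUP by 0.90 and PKP3 by 0.82. CDH3 rose by 0.80, while CDH1 was not called, at 168, 149 and 203 CPM with the drug against 132, 135 and 149.6 CPM (0.40, edgeR adjusted p = 0.0798). EPCAM (0.01), CLDN1 (0.03), DSP (-0.17) and CLDN2 (-0.28) did not pass.

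A single library decided much of what was lower among the junction genes. The share of all genes called without it is not given here, so that the counts cannot be set against all genes. Without HCT116 oxaliplatin replicate 3, 29 junction genes were called, 17 higher and 12 lower. The lower genes then included DSG2 (-1.19 ± 0.11, edgeR adjusted p = 5.43e-07), PKP4 (-0.78), AFDN (-0.75), DSC2 (-0.75), OCLN (-0.73), TJP1 (-0.71), CTNND1 (-0.64), CTNNA1 (-0.53) and DSP (-0.53). DSG2, a desmoglein found in all desmosome-bearing epithelia, shows the split, at 97.5, 96.2 and 244.5 CPM in replicates 1 to 3 with oxaliplatin and 225, 248 and 206 CPM in the controls. AFDN behaved alike, at 30.6, 31.7 and 62.2 CPM with the drug. The part of this library in the calls of the full fit is given by these values, and its cause was not tested.

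Genomic span moved with the response. Over the 33 junction genes of the count table with at least 10 counts on average, which leaves out TJP1 and TJP3 of the second table, Spearman's rho between the gene's span and its log2 fold change with oxaliplatin in HCT116 was -0.62, and over 10659 genes of that level it was -0.41. The points share the same 6 libraries, so that rho is a description without a p. The 5 junction genes under 10 kb had a median of 0.85, against 0.43 for all genes of that span. The 7 genes of 10 to 30 kb had a median of 0.53 (all genes 0.20), the 14 of 30 to 100 kb -0.01 (all -0.25) and the 7 over 100 kb -0.39 (all -0.42). CLDN3 spans 1.27 kb and CRB3 3.44 kb, while NECTIN3 spans 205 kb and CLDN12 129.7 kb. PPL, at 78.2 kb, and NECTIN4, at 18.6 kb, lay well above the median of their span class. In oxpl-R rho was -0.20 over 34 junction genes and -0.09 over 10898 genes, and with a library left out it ranged over the junction genes from -0.33 (without oxpl-R oxaliplatin replicate 3) to 0.03 (without oxpl-R oxaliplatin replicate 1), with -0.13 without oxpl-R control replicate 1. The part of span in any single gene's response was not tested.

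In oxpl-R, 3 junction genes were higher with oxaliplatin and 0 lower, where 2.02% of all genes were higher and 2.10% lower. With the replicate number as a block, and with all 24 samples fitted together, 5 were higher and 0 lower. NECTIN4 went from 4.41, 4.83 and 4.43 CPM to 68.6, 54.6 and 55.4 CPM (3.71 ± 0.22, edgeR adjusted p = 8.59e-06), and the second table gave 3.45. PPL went from 45.5, 37.8 and 33.5 CPM to 129, 79.2 and 60.3 CPM (1.21 ± 0.26, edgeR adjusted p = 0.0205), with a wide spread among treated samples, and was not called without oxpl-R control replicate 3. TJP3 (0.94 ± 0.23, edgeR adjusted p = 0.0475, in the second table, where 4.28% of genes were called) held its call in 3 of 6 fits with a sample left out. CLDN4 (0.61), JUP (0.52), CLDN1 (0.50), CRB3 (0.47), F11R (0.35), CDH1 (0.24), OCLN (0.08), NECTIN3 (-0.05), CLDN7 (-0.14), DSP (-0.14), TJP1 (-0.14), EPCAM (-0.25) and CLDN2 (-0.61) were not called.

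The difference between the lines in this response was tested as an interaction over 12 samples, coded as the oxpl-R response minus the HCT116 response. CLDN3 was the single junction gene of 41 past the threshold, where 2.44% of all genes were, so that the count was near the background. CLDN3 was at 10.2, 8.90 and 11.7 CPM in untreated oxpl-R and 13.1, 10.4 and 7.62 CPM with oxaliplatin, a log2 fold change of 0.03 against 1.53 in HCT116. The difference was -1.49 ± 0.31 (edgeR adjusted p = 0.0171), and it ranged from -1.71 to -1.32 with each sample left out. Without HCT116 control replicate 2 it was -1.44 with an edgeR adjusted p of 0.0725. Of the 41 genes, 10 had an unadjusted p below 0.05. Here and for E1A below, shares of all genes with such a p or called by DESeq2 are not given. These counts thus cannot be set against all genes. DESeq2 called 5 of the 41. CRB3 (-0.83, edgeR adjusted p = 0.0996) and CLDN7 (-0.74, edgeR adjusted p = 0.113) were among those 5, as DESeq2 gave both an adjusted p of 0.0235. Both were also called by edgeR after the filter on low counts (adjusted p = 0.0460 for each), and CRB3 in the second table (-0.93, edgeR adjusted p = 0.0410), but neither with RLE scaling, the block or all 24 samples. For NECTIN4 the difference was 1.14 ± 0.31 (edgeR adjusted p = 0.0607). It was called by DESeq2 (1.11, adjusted p = 0.00469), by edgeR after the filter on low counts (1.07, adjusted p = 0.0408) and by edgeR in the fit of all 24 samples (1.19, adjusted p = 0.0346). It was not called by edgeR with the replicate number as a block (adjusted p = 0.0781) or in the second table (0.57 ± 0.32, edgeR adjusted p = 0.397). For CLDN4, the neighbour of CLDN3, it was -0.23 (edgeR adjusted p = 0.765). The other genes followed in every comparison were not called and ranged from -0.36 (JUP) to 0.59 (OCLN), leaving out CDH17 with its few counts.

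**Figure D3:**
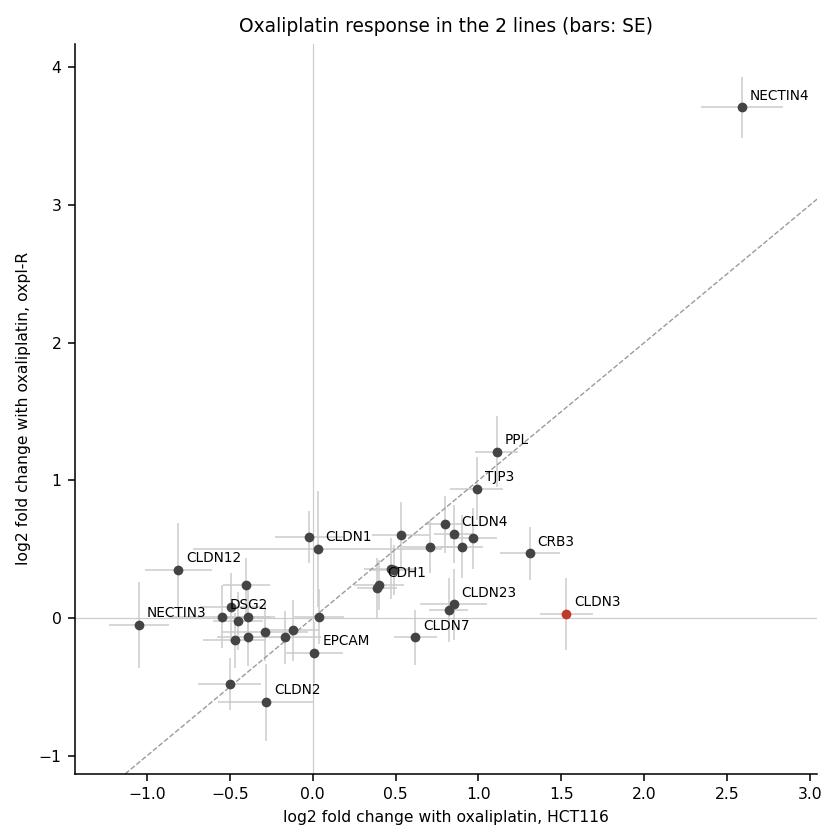
Log2 fold change with oxaliplatin in HCT116 (horizontal axis) and in oxpl-R (vertical axis) for junction genes, with SE bars and a dashed line of equality. CDH2, CDH17, CLDN6, DSG3 and PKP1, which had few counts, are left out. CLDN3, in red, stands at 1.53 in HCT116 and 0.03 in oxpl-R and is the gene past the threshold of the interaction test.

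E1A induction was examined against untreated cells of the same line. In HCT116, 5 junction genes were higher, all of them claudins, and 4 were lower, where 2.91% of all genes were higher and 6.59% lower. The 9 calls fell to 2 without HCT116 control replicate 1, to 4 without control replicate 2 and to 5 without E1A replicate 2. CLDN1 was at 1.23, 1.39 and 0.807 CPM with E1A and 0.134, 0.471 and 0.143 CPM without, so that the groups did not overlap, at a low level (2.13 ± 0.52, edgeR adjusted p = 0.0105). CLDN3 rose from 14.1, 12.03 and 12.8 CPM to 18.9, 19.7 and 18.8 CPM (0.52 ± 0.13, edgeR adjusted p = 0.0136) and CLDN4 from 283, 285 and 309 CPM to 446, 415 and 417 CPM (0.50 ± 0.10, edgeR adjusted p = 0.00206). CLDN23 (0.53) and CLDN7 (0.31) were higher as well. NECTIN3 was lower, at 83.7, 72.1 and 87.8 CPM (-0.91 ± 0.11, edgeR adjusted p = 1.44e-05), and CLDN12 (-0.47), DSC2 (-0.44) and TJP3 (-0.45, in the second table, where 5.22% of genes were called) were lower. CDH1 was at 156, 160.5 and 117 CPM with E1A and was not called, nor were DSP (0.21), TJP1 (0.05), OCLN (0.03), F11R (-0.03), EPCAM (-0.08), JUP (-0.11) and CLDN2 (-0.61).

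Most of these calls depended on single samples or on the fit. CLDN4 and NECTIN3 were the 2 genes called with each sample left out, and the only 2 called without HCT116 control replicate 1. In the fit of all 24 samples only CLDN1 was called. The changes of NECTIN3 with E1A, with oxaliplatin and between the untreated lines rest on the same 3 untreated HCT116 samples.

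In oxpl-R, 0 junction genes passed with E1A, where 0.0755% of all genes did, and DESeq2 called 0 as well, although 5 had an unadjusted p below 0.05. CLDN1 was at 2.52, 1.53 and 2.20 CPM with E1A and at 0.682, 0.690 and 0.972 CPM without (1.41 ± 0.35, edgeR adjusted p = 0.405). The difference between the lines in the response to E1A was called for 0 junction genes and 0.0164% of all genes by edgeR and for 0 junction genes by DESeq2, with 1 gene at an unadjusted p below 0.05, and it was -0.74 ± 0.61 for CLDN1, the lowest of the genes followed in every comparison, of which OCLN had the highest (0.14). Under oxaliplatin, 0 junction genes were called with E1A in HCT116, where 0.0246% of all genes were, and 0 in oxpl-R, where 0.638% were. DESeq2 called 0 in each line. An unadjusted p below 0.05 was found for 1 junction gene in HCT116 and 9 in oxpl-R. Of the genes followed in every comparison, leaving out CDH17, log2 fold changes with E1A ranged from -0.75 (CLDN2) to 1.41 (CLDN1) in oxpl-R, from -0.47 (CLDN2) to 0.67 (CLDN1) in HCT116 under oxaliplatin and from -0.78 (CLDN2) to 0.54 (CLDN7) in oxpl-R under oxaliplatin. CLDN4 was nevertheless at its highest level of all groups in HCT116 with E1A and oxaliplatin, at 768.7, 775 and 706 CPM, compared with 540.2, 469 and 489 CPM with oxaliplatin alone (0.58 ± 0.16, edgeR adjusted p = 1.00).

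Other junction components, not among the 41 genes, were counted from a list of 49 with values. In untreated oxpl-R, 11 of the 47 tested were higher and 10 lower, where 14.1% and 14.2% of all genes were. PALS1, which binds CRB3 in the Crumbs complex, was lower by 2.30 log2 units and the polarity scaffold PARD3 by 1.5, where CRB3 itself was higher. Higher were the desmoglein DSG4 (4.60, from 0.268, 0.504 and 0.286 CPM to 6.90, 7.21 and 11.7 CPM) and, chosen after its values were seen, PLEKHA7, which binds p120 catenin at adherens junctions (1.79). With oxaliplatin in HCT116, 6 of 47 were higher and 2 lower, where 13.1% and 10.2% of all genes were, so that the count higher was near the background. They included PARD6A (1.70) and the connexin GJB5 (1.48), and CTNNB1, the gene of beta-catenin, was lower (-0.85). In oxpl-R, 3 of 45 were higher, including GJB5 (1.26), and 1 lower, where 2.02% and 2.10% of all genes were. With E1A in HCT116, 2 of 48 were higher and 4 lower, where 2.91% and 6.59% of all genes were. Of 12 other claudins, 6 were tested in untreated cells and 0 called, with CLDN9 higher with oxaliplatin in HCT116 (1.85).

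Regulators of epithelial genes differed between the untreated lines in both directions, where 14.1% of all genes were higher and 14.2% lower. Of 16 epithelial transcription and splicing factors, 6 were higher and 6 lower in oxpl-R. GRHL3, a grainyhead factor of barrier genes, was at 14.4, 16.6 and 14.0 CPM in HCT116 and 0.722, 0.863 and 1.94 CPM in oxpl-R (-3.66 ± 0.29, edgeR adjusted p = 1.23e-06), while EHF (2.47) and KLF5 (1.52) were higher. Of 20 genes of epithelial-mesenchymal transition, 8 were higher and 5 lower, with FOXC1 (-1.34) and SNAI3 (-1.12) among the lower. COL5A1, CDH11 and TCF4 were near 0 in HCT116. In untreated oxpl-R their means were also low, at 0.675, 0.993 and 0.488 CPM. The spread there was wide, with SDs of 0.664, 1.005 and 0.556 CPM. Of the factors that bind CACCTG, SNAI1 and SNAI2, chosen after their values were seen, went opposite ways, SNAI1 being lower (-0.77) and SNAI2 higher (1.63, at 1.53, 1.70 and 1.36 CPM), while ZEB1 and ZEB2, which bind the same motif, were not analysed here. All 7 corepressors and coactivators known at the CDH1 promoter were lower, including HDAC2 (-1.18), KDM1A (-0.80) and CREBBP (-0.73). Of 8 proteases that cut junction proteins, 3 were higher, led by KLK6 (2.44), and 0 lower. With oxaliplatin in HCT116, where 13.1% of all genes were higher and 10.2% lower, the counts higher and lower were 3 and 1 of 16 epithelial factors, with ELF3 at 1.42, 3 and 1 of 18 transition genes, 0 and 2 of 7 corepressors and coactivators, 3 and 0 of 8 proteases and 8 and 0 of 11 p53 targets. The keratin genes KRT8 (0.98) and KRT18 (0.86), whose filaments desmosomes anchor, rose with oxaliplatin in HCT116, and CDX2, a factor of intestinal identity, was higher in untreated oxpl-R (1.42). The part of these regulators in the junction genes' differences was not tested.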

How the data were processed

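RNA-seq of 24 samples was deposited as 2 tables. The authors trimmed reads with Trimmomatic and made estimated counts per gene, which need not be whole, with Salmon 1.6.0, correcting for sequence and GC bias, and tximport, against GRCh38 with GENCODE annotation. The first table holds these counts and ends at SETP6 after 33113 genes. The second, named as TPM, sums to 28004261 to 42613322 per sample and was read as length-scaled expected counts made by the authors, since TPM would have the same sum in every sample. Over genes in both with at least 10 counts, the ratio of the means over 24 samples had a median of 1.0, with 0.981 to 1.045 for members. Single comparisons could differ more, as for NECTIN4 between untreated lines (log2 fold change 0.71 and 1.35). It ends at TSC22D3 and gave TJP1 and TJP3. The unfinished last row was left out (1 per table). No columns of the authors' own comparisons were used.

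Counts were rounded to whole numbers (15.9 to 30.4% of values per sample were not whole) and tested with edgeR 4.0.16 (quasi-likelihood, TMM, limma 3.58.1, R 4.3.3) on the samples of each comparison, over genes with a count, with Benjamini-Hochberg adjustment over all genes of the table and a threshold of 0.05. The steps were tested on simulated counts with the same dispersion for every gene and no deviating library. That test thus does not cover the unequal spread of these libraries. The SE printed with edgeR values is the absolute log2 fold change divided by the square root of the F statistic. CPM values are scaled by TMM over 24 samples. Levels between genes are divided by exon length, and positions come from GENCODE release 44, an earlier release on the same build than the one the authors used. Promoters are from RefSeq (GRCh38.p14, 28 of 41 members listed). CDH1, CDH3, CDH17, CLDN23, MARVELD3, F11R, PKP2, PKP3, PPL, EVPL, CTNND1, NECTIN1 and EPCAM were not in it. Python 3.11.15, pandas 2.3.3 and scipy 1.17.1 were used.

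The genes and the lists were chosen with earlier results of these data known. Named genes were those with an adjusted p below 0.05, an absolute log2 fold change of at least 1, at least 30 counts on average in the higher group and no overlap between samples, up to 12 per comparison, with CDH1, EPCAM, OCLN, TJP1, CLDN1, CLDN2, CLDN3, CLDN4, CLDN7, DSP, JUP, F11R, TJP3 and CDH17 followed in every comparison, by name or, for E1A in oxpl-R, E1A under oxaliplatin and the interactions, by their range (CDH17, with few counts, only where called). Interactions added members past the threshold, up to 6. Other lists gave up to 3 genes per direction with no overlap, and KRT8, KRT18, CDX2, CDKN1A, MDM2, CCNE1 and CCNE2 as checks of labels. Further members are named to complete a family. Alternatives were RLE scaling, DESeq2 1.42.0, a filter on low counts (filterByExpr, which kept 38 of 41 members), a fit of all 24 samples, the replicate number as a block, the second table, and leaving out each sample. Replicate numbers were taken to pair samples where each of the 3 correlations between deviations of same-numbered samples exceeded 0.1, which was met for the lines under oxaliplatin (0.141, 0.188 and 0.253). It was missed in 1 of 3 pairs in several others, among them oxaliplatin in oxpl-R (0.084, 0.465 and 0.547) and E1A in oxpl-R (0.028, 0.508 and 0.678). Where the rule was met, the block is printed beside the result it changed. Some genes of the other lists are not reported here.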

Additional observations from a re-analysis of the deposited data

Results flagged for a closer look

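The response of CLDN3 to oxaliplatin differed between the lines by a test of the difference itself, with an interaction of -1.49 ± 0.31 (SE, edgeR adjusted p = 0.0171). CLDN3 was the single call among 41 junction genes, a count near the 2.44% of all genes called. In HCT116 the 3 treated samples, at 36.04, 34.7 and 36 CPM, lay above the controls at 14.1, 12.03 and 12.8 CPM, whereas in oxpl-R treated samples at 13.1, 10.4 and 7.62 CPM overlapped controls at 10.2, 8.90 and 11.7 CPM. The estimate was -1.51 with DESeq2, with the second table and with the replicate block. It was not called without HCT116 control replicate 2 (-1.44, edgeR adjusted p = 0.0725). The cause was not tested. Groups of 3 samples are too small for a test of single outlying samples.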

How the results depend on the processing

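Of 2457 combinations of a named gene, a comparison and an alternative, 2311 kept their direction and side of the threshold, 102 lost the call, 44 gained it and 0 reversed. Counts of called junction genes moved more. The share of all genes called is given for the main fits and some fits of the second table only. Other counts cannot be set against all genes. The fit of all 24 samples gave 12 in place of 22 between untreated lines, 5 in place of 3 for oxaliplatin in oxpl-R, 1 in place of 9 for E1A in HCT116 and 2 in place of 1 for the oxaliplatin interaction. The second table gave 10 in place of 16 between lines with E1A and oxaliplatin, 5 in place of 9 for E1A in HCT116, 1 (DSC2, -0.99) in place of 0 for E1A under oxaliplatin in oxpl-R, and 2 for the interaction, for which DESeq2 gave 5 and the filter on low counts 4.

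The replicate block gave 5 in place of 3 for oxaliplatin in oxpl-R and 1 (NECTIN3) in place of 9 for E1A in HCT116. The first missed the rule for pairing in 1 of 3 pairs, although 5 of 6 samples correlated best with their own number, so that pairing there cannot be told from these data. In the second, 0 of 6 did. Between lines under oxaliplatin, where the rule for pairing was met, the block gave 15 in place of 14 by adding DSC2.

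With 1 sample left out, counts ranged from 15 to 22 between untreated lines, 8 to 21 under oxaliplatin (8 without oxpl-R oxaliplatin replicate 3, 9 without HCT116 oxaliplatin replicate 2), 4 to 18 with E1A (4 without HCT116 E1A replicate 1 or 2), 7 to 15 with both (7 without oxpl-R E1A plus oxaliplatin replicate 2, 9 without replicate 3), 11 to 29 for oxaliplatin in HCT116 (11 without HCT116 control replicate 1 or 2, 29 without HCT116 oxaliplatin replicate 3), 2 to 3 for oxaliplatin in oxpl-R, 2 to 11 for E1A in HCT116 (2 without HCT116 control replicate 1, 4 without control replicate 2, 5 without E1A replicate 2), 0 to 1 for E1A under oxaliplatin in oxpl-R (PPL without oxpl-R oxaliplatin replicate 3) and 0 to 6 for the oxaliplatin interaction (0 without HCT116 control replicate 2, 6 without HCT116 oxaliplatin replicate 3 or oxpl-R oxaliplatin replicate 1). Each such fit leaves groups of 2 and 3. The causes were not tested. Depth limits CDH2, CDH17, CLDN6, DSG3 and PKP1, which had at most 28 counts in any library.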
